A study of Mus musculus with 3 samples.

Results

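The TNF superfamily ligands and receptors were followed through lung cells of mice with and without irradiation. Members were taken by gene symbol and not by any measured value. They are all genes whose symbol starts with Tnfsf or Tnfrsf, together with Tnf, Lta, Ltb, Fas, Fasl, Cd27, Cd40, Cd40lg, Cd70 and Ltbr. The rule found 43 of the 31054 features in the files: 17 ligand genes, 24 receptor genes, the antisense transcript Tnfsf13os and the readthrough gene Tnfsfm13. RNA of single cells was measured in droplets, with 10x barcodes and poly(dT) priming, in 3 groups of mice, with 1 library per group. The first group was conditional knockout mice that were irradiated and given a drug (irradiated cKO), the second irradiated wild-type mice (irradiated WT) and the third non-irradiated wild-type mice, the control (non-irradiated WT). The labels name neither the deleted gene, nor the Cre driver, nor the drug, so the deletion could not be checked, and genotype and drug cannot be told apart. The sources used here do not state how many mice a library pools, their strain or age, the radiation dose or the time of sampling.

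TNF superfamily ligands are mostly membrane proteins that act as trimers on the surface of one cell and cluster receptors on another. The receptors fall into broad kinds. Death receptors such as Fas carry a death domain and can start caspase activation, while costimulatory receptors such as Tnfrsf9 (4-1BB), Tnfrsf4 (OX40), Tnfrsf18 (GITR), Cd27 and Cd40 recruit TRAF adaptors and activate NF-kB. Others, among them Tnfrsf13c (BAFF receptor) and Ltbr, signal for survival of lymphocytes or for stromal organisation, and Tnfrsf11b (osteoprotegerin) is a secreted decoy for Tnfsf11 (RANKL) and Tnfsf10 (TRAIL).

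The libraries held 76667310 UMIs for irradiated cKO, 45800421 for irradiated WT and 85984536 for non-irradiated WT mice. After filtering, 9886 cells of irradiated cKO, 5805 of irradiated WT and 13091 of non-irradiated WT mice remained, and 18 to 32 of their barcodes were shared between any pair of libraries. Cells of male type, judged by Y-linked RNA without Xist, were 0.273% of irradiated cKO, 27.5% of irradiated WT and 0.00764% of non-irradiated WT cells, so the irradiated WT library differs from both others in this respect. Cells were put into 6 gates by a few RNAs (T, B, NK, Csf1r, endothelial and fibroblast), and 7.97% of gated cells in irradiated cKO, 7.14% in irradiated WT and 12.8% in non-irradiated WT mice were in more than 1 gate. The 7 check markers of each gate, none of them used for gating, were detected in their own gate in all 3 libraries. The endothelial gate, which asks for at least 2 UMIs of Pecam1 and Cdh5 together, was not endothelial alone in the irradiated libraries. Of its cells, 41.4% in irradiated cKO and 44.1% in irradiated WT mice were also in the T gate, against 8.01% in non-irradiated WT mice. Endothelial results are therefore given for this gate and for a stricter one: at least 1 Cdh5 UMI, no Ptprc (CD45) UMI and no other gate. Since each group is a single library, no spread over animals can be given and nothing was tested. Values are CPM, a gene's UMIs in a gate scaled to 1000000 UMIs of that gate, with 95% exact Poisson intervals in brackets, which cover counting error only. A member is called apart between libraries when the CPM ratio, with 5 CPM added on both sides, is at least 2-fold and the higher library has at least 30 UMIs, and log2 ratios are on this scale. Both comparisons use the irradiated WT library, so they are not independent of each other.

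Of the 258 combinations of member and gate, 151 had enough UMIs to be compared between irradiated WT and non-irradiated WT mice. Irradiated WT was higher in 20 and lower in 21 of these. Over all genes and gates the same rule gave 2.2% higher and 7.2% lower. The endothelial gate with its T cells held 13 of the 20 and 6 of the 21. Between irradiated cKO and irradiated WT mice 145 combinations were compared, and 2 were higher and 2 lower, against 1.55% and 0.846% over all genes. Of the 43 members, 38 could be compared in at least 1 gate and 25 were apart in at least 1 gate and comparison, which 22% of all genes compared were as well. In the library of non-irradiated WT mice, 10 members had their highest level in the T gate, 7 in the B gate, 5 in the NK gate, 8 in the Csf1r gate, 8 in the endothelial gate and 5 in the fibroblast gate. For several of them, Fas and Cd27 among these, the intervals of the highest and the next gate overlap. Some had hardly any UMIs: in the B gate Tnfsf13 and Tnfsf18 were highest at 0.245 CPM each and Tnfrsf17 at 1.35 CPM.

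**Figure D1:**
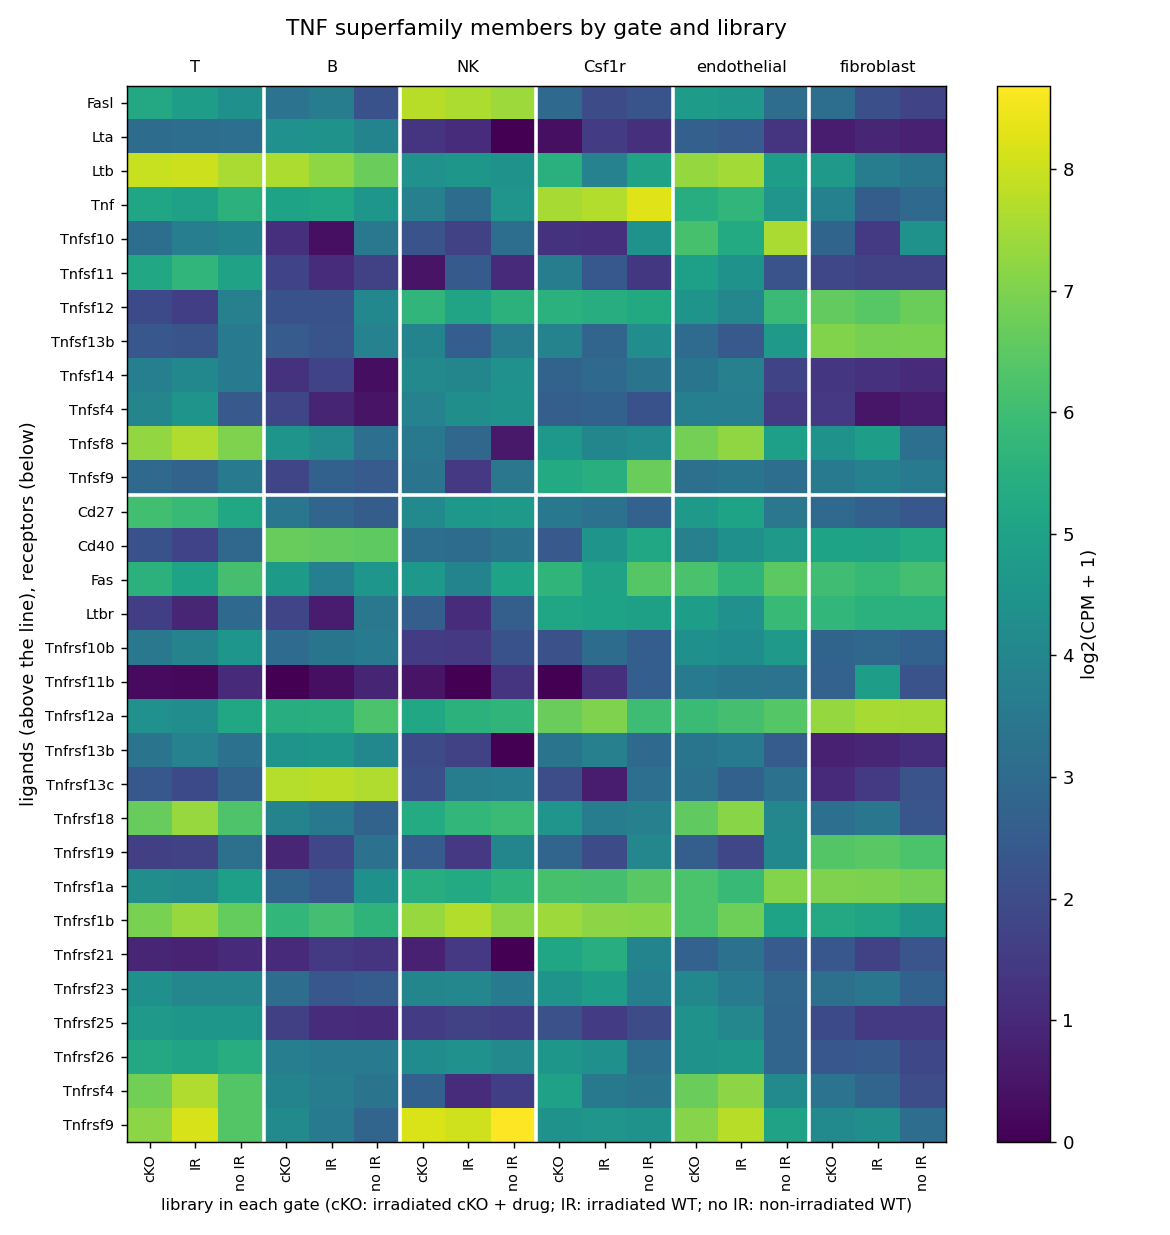
Levels of the members described with values, as log2(CPM + 1), with ligands above the white line and receptors below it, and 1 column per gate and library (irradiated cKO, irradiated WT, non-irradiated WT from left to right). Read along a row, the columns of a gate differ less than the gates do for members such as Tnfrsf13c in B, Tnf in Csf1r and Tnfsf13b in fibroblast gates, while the irradiated endothelial columns carry the members of the T columns.

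Tnfrsf9, Tnfrsf4, Tnfrsf18 and the ligand Tnfsf4 were higher in T cells of irradiated WT mice than of non-irradiated WT mice. Of the 33 members compared in the T gate, 4 were higher (0.701% of all genes) and 2 lower (5.23% of all genes). Other costimulatory receptors of T cells, Cd27 and Tnfrsf25, were not apart. The median log2 ratio of the members was -0.01, beside 0.07 for all genes compared. The higher members are thus a few of the family.

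Tnfrsf9 encodes 4-1BB, which activated T and NK cells display. In the T gate its level was 143 CPM (139.8 to 147) in irradiated cKO, 283 CPM (276 to 289.9) in irradiated WT and 81.9 CPM (77.3 to 86.7) in non-irradiated WT mice. The CPM ratio of irradiated WT over non-irradiated WT was 3.45 (3.24 to 3.68), and irradiated cKO lay between the other libraries with no overlap of intervals. Tnfrsf4, or OX40, supports survival of activated CD4+ T cells. It stood at 113 CPM (110.1 to 117) in irradiated cKO, 200.4 CPM (195 to 207) in irradiated WT and 80.3 CPM in non-irradiated WT mice, a ratio of 2.50 (2.34 to 2.66) for irradiated WT over non-irradiated WT. Tnfrsf18, or GITR, is carried at high levels by regulatory T cells. Its values were 101 CPM (97.9 to 104) in irradiated cKO, 163 CPM (157 to 168) in irradiated WT and 77.4 CPM (73.0 to 82.1) in non-irradiated WT mice, with a ratio of 2.10 (1.96 to 2.25). Tnfsf4 encodes the OX40 ligand. Its T gate level was 14.4 CPM (13.2 to 15.6) in irradiated cKO and 21.6 CPM (19.7 to 23.7) in irradiated WT mice, against 4.40 CPM (3.39 to 5.61) in non-irradiated WT mice, where it rested on 64 UMIs. For all 4 genes the order was the same: irradiated WT highest, irradiated cKO next and non-irradiated WT lowest. The whole-gate difference between irradiated WT and non-irradiated WT stayed past 2-fold for Tnfrsf9 in 11 of the 12 alternative settings that could have ended it, for Tnfrsf4 and Tnfsf4 in 10 each and for Tnfrsf18 in 3.

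The T gate was also read by the sex type of its cells, since the irradiated WT library alone holds many of male type. In cells of female type, Tnfrsf9 stood at 149 CPM in irradiated cKO, 319 CPM in irradiated WT and 86.9 CPM in non-irradiated WT mice. Male-type T cells of irradiated WT mice had 265 CPM of Tnfrsf9. For Tnfrsf4 the female-type values were 117 CPM in irradiated cKO, 238 CPM in irradiated WT and 85.6 CPM in non-irradiated WT mice.

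The 3 receptor genes of this group lie on mouse chromosome 4. Tnfrsf4 (chr4:156013843-156016612) and Tnfrsf18 (chr4:156026164-156028895) are neighbours on the plus strand with 9551 bases between them, and Tnfrsf9 (chr4:150914562-150946102, plus strand) lies apart from them, all on GRCm38. Tnfrsf9 overlaps Camta1 on the opposite strand over 28781 bases and Tnfrsf18 overlaps the antisense gene Gm16008 over 2732 bases. Because the counting strand is not stated, reads of these overlaps cannot be told apart. The 250 bases before each annotated start (RefSeq, GRCm38.p6) are shown because the genes differ there in motifs bound by factors that act after receptor engagement in T cells. Capitals mark matches to a kB motif (GGG, any 3 bases, then TTCC, on either strand) or an AP-1 motif (TGANTCA, a palindrome), and the last base is the one before the start.
Tnfrsf9, first start (chr4:150919905-150920154, plus strand): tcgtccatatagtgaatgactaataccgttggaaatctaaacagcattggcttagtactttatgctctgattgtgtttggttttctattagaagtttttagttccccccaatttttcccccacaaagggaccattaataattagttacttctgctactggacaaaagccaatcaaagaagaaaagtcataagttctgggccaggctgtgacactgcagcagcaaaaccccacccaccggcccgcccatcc
Tnfrsf9, second start (chr4:150927749-150927998, plus strand): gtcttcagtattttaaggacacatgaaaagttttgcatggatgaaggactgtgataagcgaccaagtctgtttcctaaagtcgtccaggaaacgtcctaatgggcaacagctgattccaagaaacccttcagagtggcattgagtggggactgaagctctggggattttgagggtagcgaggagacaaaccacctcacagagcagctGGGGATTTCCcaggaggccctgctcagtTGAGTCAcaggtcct
Tnfrsf4 (chr4:156013445-156013694, plus strand): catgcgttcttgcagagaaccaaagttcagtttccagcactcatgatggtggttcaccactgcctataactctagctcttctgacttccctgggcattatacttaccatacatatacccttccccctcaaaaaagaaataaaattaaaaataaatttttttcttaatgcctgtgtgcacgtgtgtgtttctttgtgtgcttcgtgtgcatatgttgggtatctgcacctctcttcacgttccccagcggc
Tnfrsf18 (chr4:156026072-156026321, plus strand): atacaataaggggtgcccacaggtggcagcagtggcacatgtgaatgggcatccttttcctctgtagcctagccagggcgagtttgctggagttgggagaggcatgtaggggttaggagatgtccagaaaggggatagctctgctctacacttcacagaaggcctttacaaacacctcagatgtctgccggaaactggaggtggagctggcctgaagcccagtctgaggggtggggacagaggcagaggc
The second Tnfrsf9 start has a kB match beginning at position -43 and an AP-1 match beginning at position -15, which do not overlap each other. The first Tnfrsf9 start, Tnfrsf4 and Tnfrsf18 have neither in these windows. Among 32851 promoter windows of this length, 4.65% hold the kB letters and 6.75% the AP-1 letters. Of the 32 members with an entry in the promoter table, 2 have a kB match at their first listed start and 4 have an AP-1 match. A match is a description of these letters and not a bound site. The counts do not tell which start was used.

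The T gate was divided by further RNAs to see where the receptors sat. Each cell went to the first of Foxp3, Trdc, Cd8a or Cd8b1, and Cd4 whose RNA it held, so the subsets do not overlap. Cells with Foxp3 RNA, the factor of regulatory T cells, were 4.55% (3.99 to 5.15) of T gate cells in irradiated cKO, 10.9% (9.73 to 12.1) in irradiated WT and 3.77% (2.95 to 4.73) in non-irradiated WT mice (exact binomial intervals). Within these Foxp3 cells the receptors were at high levels in every library. Tnfrsf9 was 749 CPM in irradiated cKO, 959 CPM in irradiated WT and 662 CPM in non-irradiated WT mice. Tnfrsf4 was 840.0 CPM in irradiated cKO, 767 CPM in irradiated WT and 739 CPM in non-irradiated WT mice. Of 10 members compared within Foxp3 cells, irradiated WT was higher in 0 and lower in 1 than non-irradiated WT (6.96% and 2.27% of all genes). The lower one was Tnfsf8, the ligand of CD30, at 83.9 CPM in irradiated WT against 177 CPM in non-irradiated WT mice. With the Foxp3 cells left out of the T gate, the log2 ratio of irradiated WT over non-irradiated WT was 1.37 for Tnfrsf9, 0.80 for Tnfrsf4, 0.54 for Tnfrsf18 and 1.61 for Tnfsf4, so that Tnfrsf4 and Tnfrsf18 were no longer apart. With the same mix of subsets in both libraries the log2 ratios were 0.99 for Tnfrsf9, 0.47 for Tnfrsf4, 0.55 for Tnfrsf18 and 1.58 for Tnfsf4, and Tnfsf4 alone of the 4 stayed past 2-fold. The share of Foxp3 cells and the whole-gate levels of Tnfrsf9, Tnfrsf4 and Tnfrsf18 were all highest in irradiated WT mice. Between irradiated cKO and non-irradiated WT mice the intervals of the share overlap. Whole-gate Tnfrsf9 was at 143 CPM in irradiated cKO and 81.9 CPM in non-irradiated WT mice. What sets the receptor levels was not tested.

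Outside the Foxp3 cells, differences were found in cells with Cd8a or Cd8b1 RNA and in cells with Cd4 RNA. In the Cd8a/Cd8b1 cells, 7 of 25 members were higher in irradiated WT than in non-irradiated WT mice (1.91% of all genes) and 3 were lower (6.14% of all genes). Tnfsf4 was at 27.4 CPM in irradiated cKO and 52.4 CPM in irradiated WT mice, against 4.92 CPM in non-irradiated WT mice, and irradiated WT over non-irradiated WT gave a ratio of 10.7 (6.87 to 17.3). Tnfrsf9 was at 54.6 CPM in irradiated cKO, 113 CPM in irradiated WT and 30.2 CPM in non-irradiated WT mice. The other higher members were Tnfrsf4, Tnfsf8, Tnfsf11, the death ligand Fasl and the CD27 ligand Cd70. Tnfsf8 stood at 59.7 CPM in irradiated cKO, 112 CPM in irradiated WT and 35.6 CPM in non-irradiated WT mice. Fasl stood at 35.0 CPM in irradiated cKO, 38.0 CPM in irradiated WT and 15 CPM in non-irradiated WT mice, so both irradiated libraries were above the control. The lower members were the death receptor Tnfrsf10b, Tnfsf12 (TWEAK) and its receptor Tnfrsf12a.

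The Cd4 cells exclude those with Foxp3, Trdc, Cd8a or Cd8b1 RNA. In them 6 of 21 members were higher in irradiated WT than in non-irradiated WT mice (2.06% of all genes) and 0 were lower (4.1% of all genes). Tnfsf4 had 17.1 CPM in irradiated cKO and 41.3 CPM in irradiated WT mice, against 1.28 CPM in non-irradiated WT mice, where only 2 UMIs were found. The ratio of irradiated WT over non-irradiated WT was 32.2 (8.67 to 269). Tnfsf11, the cytokine RANKL, had 89.5 CPM in irradiated cKO, 123 CPM in irradiated WT and 28.9 CPM in non-irradiated WT mice. Tnfrsf9 had 111 CPM in irradiated cKO, 259 CPM in irradiated WT and 79.6 CPM in non-irradiated WT mice, so here irradiated cKO was nearer to the control. The remaining 3 were Tnfrsf18, Tnfrsf1b (TNF receptor 2) and Cd70. In the Cd4 cells, Cd70 had 28 UMIs in irradiated cKO, 34 UMIs in irradiated WT and 0 UMIs in non-irradiated WT mice. In the Cd8a/Cd8b1 cells it had 86 UMIs in irradiated cKO, 37 UMIs in irradiated WT and 0 UMIs in non-irradiated WT mice. These counts are not scaled and do not rank the irradiated libraries. All genes together had 3912630 UMIs in irradiated cKO and 2349872 in irradiated WT mice in the Cd4 cells. In the Cd8a/Cd8b1 cells they had 11849777 UMIs in irradiated cKO and 4424375 in irradiated WT mice. Cd70 was picked out after its values were seen. Cells with Trdc RNA, a γδ receptor chain, differed in 3 of 22 members: Tnfsf8 was higher (178 CPM in irradiated WT against 75.7 CPM in non-irradiated WT mice, 0.592% of all genes) and Tnfsf13b and Tnfsf12 were lower (7.88% of all genes). Of 30 members compared in the T cells with none of these RNAs, Tnfrsf9 was higher (1.19% of all genes) and Ltbr, Tnfsf12, Tnfsf9 and Fas were lower (7.35% of all genes).

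**Figure D2:**
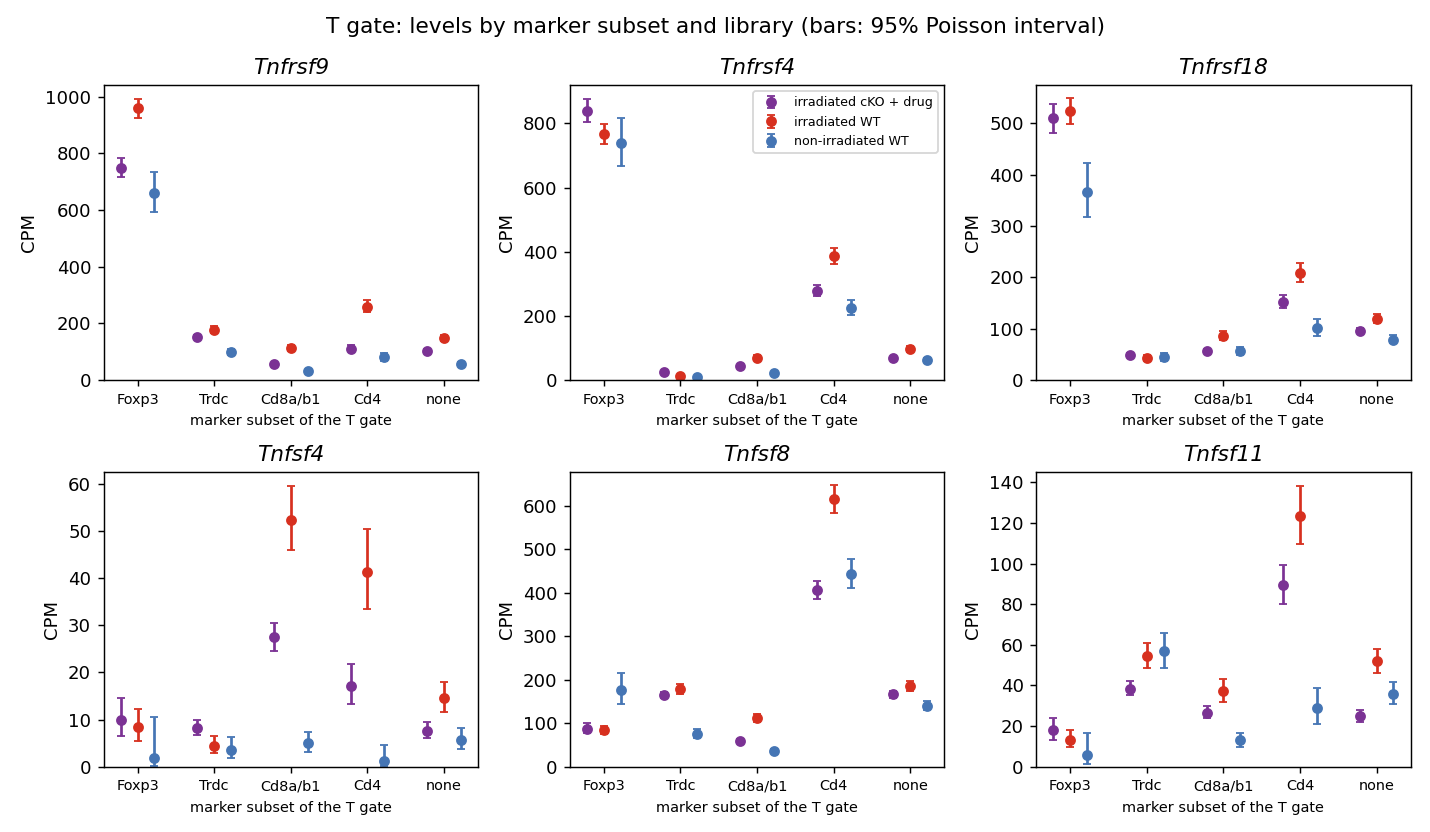
CPM of 6 members in the marker subsets of the T gate (x axis; none means no subset RNA), with purple for irradiated cKO, red for irradiated WT and blue for non-irradiated WT mice, and bars for 95% Poisson intervals, which cover counting error only. Tnfrsf9, Tnfrsf4 and Tnfrsf18 are highest in Foxp3 cells of every library, and Tnfsf4 is highest in the Cd8a/Cd8b1 and Cd4 cells of irradiated WT mice.

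Fas and Tnfsf12 were the members lower in the T gate of irradiated WT mice. Fas, the receptor of Fasl, was at 46.6 CPM (44.6 to 48.7) in irradiated cKO and 32.2 CPM (29.8 to 34.6) in irradiated WT mice, against 69.4 CPM (65.2 to 73.9) in non-irradiated WT mice. The difference of irradiated WT and non-irradiated WT mice sits at the 2-fold threshold, and 6 of the 12 alternative settings that could have ended it keep it. In cells of female type it was short of 2-fold, with Fas at 45.2 CPM in irradiated cKO, 32.6 CPM in irradiated WT and 65.8 CPM in non-irradiated WT mice. Tnfsf12 was at 2.90 CPM in irradiated cKO, 2.04 CPM in irradiated WT and 12.6 CPM in non-irradiated WT mice, far under its level in fibroblasts. The T gate of non-irradiated WT mice also held more RNA of other cell types: the AT2 epithelial list summed to 367 CPM in irradiated cKO, 107 CPM in irradiated WT and 3160.5 CPM in non-irradiated WT mice, and the fibroblast list to 174 CPM in irradiated cKO, 121 CPM in irradiated WT and 646 CPM in non-irradiated WT mice. The part of this RNA in the lower values was not tested.

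Other members with T cells as their highest or near-highest gate were closer between libraries. Tnfsf8, expressed by activated T cells, stood at 153 CPM in irradiated cKO, 199.6 CPM in irradiated WT and 128 CPM in non-irradiated WT mice. Tnfsf11 stood at 34.8 CPM in irradiated cKO, 51.5 CPM in irradiated WT and 31.5 CPM in non-irradiated WT mice. Ltb, the membrane anchor of lymphotoxin, stood at 249 CPM in irradiated cKO, 261 CPM in irradiated WT and 192 CPM in non-irradiated WT mice, and Cd27 at 65.3 CPM in irradiated cKO, 56.5 CPM in irradiated WT and 35.1 CPM in non-irradiated WT mice. These 4 were each higher in both irradiated libraries than in the control, by less than 2-fold. For Tnfsf11 the intervals of irradiated cKO and non-irradiated WT mice overlap. Tnfrsf25 (DR3), a costimulatory death-domain receptor, differed by less than counting error between irradiated WT (23.0 CPM) and non-irradiated WT mice (22.9 CPM), with 24.6 CPM in irradiated cKO mice. The mouse receptor gene Tnfrsf26 was at 36.6 CPM in irradiated cKO, 32.3 CPM in irradiated WT and 42.0 CPM in non-irradiated WT mice. Tnfrsf23, a mouse decoy receptor for TRAIL, was at 19.5 CPM in irradiated cKO, 15.1 CPM in irradiated WT and 15.3 CPM in non-irradiated WT mice. In the Csf1r gate Tnfrsf23 was at 21.6 CPM in irradiated cKO, 28.3 CPM in irradiated WT and 12.5 CPM in non-irradiated WT mice, which was not called apart. It was called higher there in irradiated WT than in non-irradiated WT mice with 1 CPM added, without cells in several gates, or with every cell weighing the same.

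NK cells carried Tnfrsf9 and Fasl at high levels in all 3 libraries. Fasl, through which NK cells can kill Fas-bearing targets, was at 214 CPM (197 to 233) in irradiated cKO, 196 CPM (176 to 218) in irradiated WT and 168 CPM (149.9 to 187) in non-irradiated WT mice. Tnfrsf9 was at 294 CPM (274 to 315) in irradiated cKO, 263 CPM (239.7 to 288) in irradiated WT and 411 CPM (383 to 440.3) in non-irradiated WT mice. In NK cells the control was thus highest for Tnfrsf9, the reverse of its order in T cells, at a CPM ratio of 0.640 (0.570 to 0.719) for irradiated WT over non-irradiated WT, which is short of 2-fold. Tnfrsf1b stood at 160.5 CPM in irradiated cKO, 205 CPM in irradiated WT and 144 CPM in non-irradiated WT mice. Tnfsf14 (LIGHT) stood at 16.2 CPM in irradiated cKO, 14.7 CPM in irradiated WT and 20.1 CPM in non-irradiated WT mice, with intervals that overlap. Of 14 members compared, irradiated WT was higher in 0 and lower in 1 (1.05% and 7.09% of all genes). The lower one was Tnf, with 13 UMIs in irradiated WT against 43 in non-irradiated WT mice, and 41.9% of the control's UMIs came from 1 cell. The neutrophil list summed to 87.0 CPM in irradiated cKO, 70.2 CPM in irradiated WT and 901 CPM in non-irradiated WT mice, and its part in the result was not tested.

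In B cells the BAFF receptor and CD40 stood at nearly the same level in the 3 libraries. Tnfrsf13c, the receptor through which BAFF supports mature B cells, was at 208 CPM (196 to 220.1) in irradiated cKO, 219.8 CPM (204 to 236) in irradiated WT and 201 CPM (191 to 211) in non-irradiated WT mice. Cd40, which receives T-cell help, was at 102 CPM (93.4 to 110.3) in irradiated cKO, 95.7 CPM (85.6 to 107) in irradiated WT and 91.3 CPM (84.9 to 98.2) in non-irradiated WT mice, and all 3 intervals overlap. Ltb was at 197 CPM (186 to 209) in irradiated cKO, 148 CPM (135 to 161) in irradiated WT and 103 CPM (96.1 to 110.2) in non-irradiated WT mice. The intervals are apart, and the difference stays under 2-fold in both comparisons. Tnfrsf13b (TACI), another BAFF receptor, stood at 21.8 CPM in irradiated cKO, 23.4 CPM in irradiated WT and 15.7 CPM in non-irradiated WT mice. Lta, the soluble lymphotoxin, stood at 20.2 CPM in irradiated cKO, 21.1 CPM in irradiated WT and 14.2 CPM in non-irradiated WT mice. No member of 23 was higher in irradiated WT (0.556% of all genes) and 5 were lower (7.57% of all genes): Tnfsf10, Ltbr, Tnfrsf1a, Tnfsf13b and Tnfsf12. In the control each of these 5 was far under its level in its own highest gate, and none was past 2-fold once cells in several gates were left out. Beside them, the endothelial list of the B gate summed to 25.6 CPM in irradiated cKO, 7.61 CPM in irradiated WT and 416 CPM in non-irradiated WT mice, and the fibroblast list to 146 CPM in irradiated cKO, 209.8 CPM in irradiated WT and 880.4 CPM in non-irradiated WT mice. Their part in these values was not tested.

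In the strict endothelial gate one secreted decoy receptor stood apart. The gate had 200 cells in irradiated cKO, 79 in irradiated WT and 1963 in non-irradiated WT mice. Its endothelial list summed to 7542 CPM in irradiated cKO, 8505 CPM in irradiated WT and 8817 CPM in non-irradiated WT mice. Its T list summed to 47.1 CPM in irradiated cKO, 29.99 CPM in irradiated WT and 35.0 CPM in non-irradiated WT mice. Other lists were less even: the AT2 list summed to 135 CPM in irradiated cKO, 3995 CPM in irradiated WT and 8737 CPM in non-irradiated WT mice, and the Csf1r list to 136 CPM in irradiated cKO, 157 CPM in irradiated WT and 1248 CPM in non-irradiated WT mice, and their part in the results of this gate was not tested. Of 15 members compared between irradiated WT and non-irradiated WT mice, 1 was higher (2.44% of all genes) and 1 lower (6.49% of all genes). Tnfrsf11b, the decoy receptor osteoprotegerin, was at 48.8 CPM (36.9 to 63.4) in irradiated cKO and 58.1 CPM (39.5 to 82.5) in irradiated WT mice, against 11.2 CPM (9.19 to 13.5) in non-irradiated WT mice. Its UMIs came from 24 cells in irradiated cKO, 13 cells in irradiated WT and 73 cells in non-irradiated WT mice, and irradiated WT over non-irradiated WT gave a CPM ratio with an interval of 3.37 to 7.80. Both irradiated libraries were above the control without overlap of intervals. In the Pecam1 and Cdh5 gate its values in the subset set by Car4 or Ednrb RNA, genes of the gas-exchange capillary, were 44.6 CPM in irradiated cKO, 77.7 CPM in irradiated WT and 18.6 CPM in non-irradiated WT mice. In the subset set by Gpihbp1 RNA it was at 32.3 CPM in irradiated cKO and 6.24 CPM in non-irradiated WT mice. The Car4 or Ednrb subset was 14.0% of that gate in irradiated cKO, 12.7% in irradiated WT and 21.0% in non-irradiated WT mice. The Gpihbp1 subset was 7.34% in irradiated cKO, 2.24% in irradiated WT and 29.2% in non-irradiated WT mice. The part of this mix in the Tnfrsf11b difference was not tested. The lower member of the strict gate was Cd40: 26.2 CPM (17.7 to 37.3) in irradiated cKO, 7.50 CPM (2.04 to 19.2) in irradiated WT and 22.7 CPM (19.8 to 25.9) in non-irradiated WT mice, where irradiated WT rests on 4 UMIs.

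Death receptors and their ligand differed by less than 2-fold between libraries in the strict endothelial gate. Tnfsf10, the death ligand TRAIL, was at 235 CPM (207 to 264) in irradiated cKO, 214 CPM (176 to 257) in irradiated WT and 300.2 CPM (289 to 311) in non-irradiated WT mice, which is lower in both irradiated libraries by less than 2-fold. Fas was at 129.9 CPM in irradiated cKO, 122 CPM in irradiated WT and 110.2 CPM in non-irradiated WT mice. Tnfrsf1a, the death-domain TNF receptor 1, was at 195 CPM in irradiated cKO, 206 CPM in irradiated WT and 169.5 CPM in non-irradiated WT mice. The TRAIL receptor Tnfrsf10b was at 49.7 CPM (37.6 to 64.4) in irradiated cKO and 54.4 CPM (36.4 to 78.1) in irradiated WT mice. In non-irradiated WT mice it was at 32.5 CPM (29.1 to 36.3), below both irradiated intervals. Irradiated WT had 29 Tnfrsf10b UMIs, too few for the gene to be compared. Ltbr, the lymphotoxin beta receptor, was at 71.5 CPM in irradiated cKO, 73.1 CPM in irradiated WT and 73.8 CPM in non-irradiated WT mice. Tnfrsf12a, the TWEAK receptor, was at 107 CPM (89.1 to 128) in irradiated cKO, 61.9 CPM (42.6 to 86.9) in irradiated WT and 77.5 CPM (72.1 to 83.2) in non-irradiated WT mice.

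The Pecam1 and Cdh5 gate gave a different account. Of 34 members compared there, 13 were higher (5.87% of all genes) and 6 lower (12.4% of all genes) in irradiated WT than in non-irradiated WT mice. The higher ones were Tnfrsf18, Tnfrsf4, Tnfrsf9, Ltb, Tnfsf8, Tnfrsf1b, Tnfsf11, Tnfsf4, Tnfrsf26, Cd27, Tnfsf14, Fasl and Tnf, mostly members with their highest gate in T or NK cells. Tnfrsf18, for example, was at 93.6 CPM in irradiated cKO, 139 CPM in irradiated WT and 15.1 CPM in non-irradiated WT mice, and Tnfrsf26 at 21.1 CPM in irradiated cKO, 23.1 CPM in irradiated WT and 6.09 CPM in non-irradiated WT mice. The lower ones were Tnfsf10, Tnfsf12, Tnfsf13b, Tnfrsf19, Ltbr and Tnfrsf1a, each with its highest gate in endothelial cells or fibroblasts. Tnfsf10 was at 70.0 CPM in irradiated cKO, 38.7 CPM in irradiated WT and 190.4 CPM in non-irradiated WT mice. In the strict gate 9 of these 19 had enough UMIs to be compared, of which 0 were apart and 5 had the opposite sign, and 10 had too few UMIs. With 79 cells of irradiated WT mice, the strict gate leaves wide intervals for the low members, such as a ratio of 0.0505 to 1.58 for Cd27. The T list of the Pecam1 and Cdh5 gate summed to 1573 CPM in irradiated cKO, 1385 CPM in irradiated WT and 293 CPM in non-irradiated WT mice, and the endothelial list to 2101 CPM in irradiated cKO, 1379 CPM in irradiated WT and 5753 CPM in non-irradiated WT mice. Within that gate, 15 members were compared in the Car4 or Ednrb cells, 51 of them in irradiated WT and 617 in non-irradiated WT mice. Tnfrsf9 and Tnfrsf11b were higher there (2.28% of all genes), and Cd40, Tnfsf8 and Tnf were lower (13% of all genes). In irradiated WT mice the lower ones rest on 4 UMIs of Cd40, 0 of Tnfsf8 and 1 of Tnf. Tnfsf8 and Tnf had the opposite sign to the whole gate, but with intervals that overlap. Tnfsf8 was at 0 CPM (0 to 8.96) in irradiated WT and 8.44 CPM in non-irradiated WT mice. Tnf was at 2.43 CPM (0.0615 to 13.5) in irradiated WT and 11.8 CPM in non-irradiated WT mice. Tnfrsf9 in the strict gate had 1 UMI (1.87 CPM) in irradiated WT and 15 UMIs (1.53 CPM) in non-irradiated WT mice. In the cells of the Pecam1 and Cdh5 gate outside the marker subsets 8 of 31 members were higher (3.41% of all genes) and 6 lower (12.6% of all genes), each also called in the same direction in the whole gate.

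**Figure D3:**
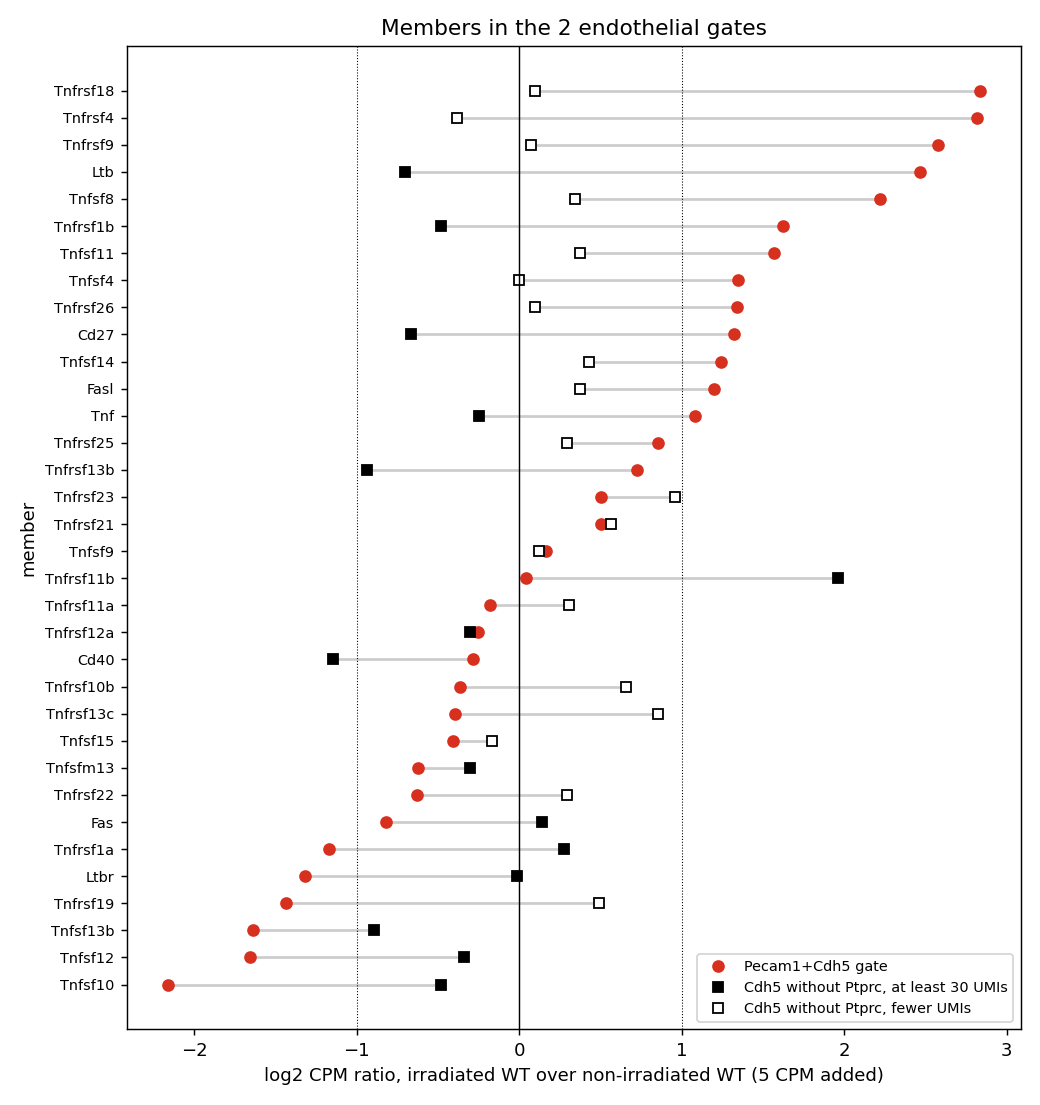
Log2 CPM ratio of irradiated WT over non-irradiated WT mice (5 CPM added) for each member in the Pecam1 and Cdh5 gate (red circles) and in the gate with Cdh5 and without Ptprc (squares, filled with at least 30 UMIs), with dotted lines at 2-fold. The red points run from -2.16 for Tnfsf10 to 2.84 for Tnfrsf18, and the filled squares stay within the dotted lines except for Tnfrsf11b and Cd40.

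Fibroblasts had the highest level of the ligands Tnfsf13b and Tnfsf12 among the gates in every library, and these did not differ between libraries by 2-fold. Tnfsf13b, which encodes BAFF, was at 131 CPM (124 to 138) in irradiated cKO, 119.5 CPM (109.6 to 130.2) in irradiated WT and 122 CPM (118 to 126) in non-irradiated WT mice, and the 3 intervals overlap. Tnfsf12, or TWEAK, was at 95.8 CPM (89.7 to 102) in irradiated cKO, 85.3 CPM (77.0 to 94.4) in irradiated WT and 106 CPM (102 to 109) in non-irradiated WT mice. The Tnfsf12 gene shares its locus with Tnfsf13, Tnfsfm13 and Tnfsf13os, so reads there may be divided among them. Within the fibroblasts with at least 2 UMIs of Npnt, Ces1d and Inmt together, Tnfsf13b was at 142 CPM in irradiated cKO, 129 CPM in irradiated WT and 128 CPM in non-irradiated WT mice.

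Fibroblast receptors were close between libraries as well. Tnfrsf12a, which binds TWEAK, was at 158 CPM (150.3 to 166) in irradiated cKO, 188 CPM (176 to 201) in irradiated WT and 183 CPM (178 to 187) in non-irradiated WT mice. Tnfrsf1a was at 126 CPM in irradiated cKO, 125 CPM in irradiated WT and 117 CPM in non-irradiated WT mice, and Tnfrsf19 (TROY) at 81.1 CPM in irradiated cKO, 87.6 CPM in irradiated WT and 74.6 CPM in non-irradiated WT mice. Ltbr was at 53.0 CPM in irradiated cKO, 46.2 CPM in irradiated WT and 45.7 CPM in non-irradiated WT mice, and Fas at 63.9 CPM in irradiated cKO, 55.2 CPM in irradiated WT and 67.4 CPM in non-irradiated WT mice. Of 25 members compared between irradiated WT and non-irradiated WT mice, 2 were higher (0.587% of all genes) and 1 lower (1.81% of all genes). The higher ones rested on few cells. Tnfrsf11b was at 5.59 CPM in irradiated cKO, 27.9 CPM in irradiated WT and 3.67 CPM in non-irradiated WT mice, but its 124 UMIs in irradiated WT mice came from 11 cells, 50.8% of them from 1 cell. Without the 3 highest cells of the irradiated WT library the log2 ratio was -0.24 in place of 1.93. Tnfsf8 was at 21.1 CPM in irradiated cKO, 27.7 CPM in irradiated WT and 8.09 CPM in non-irradiated WT mice, and 63.4% of its UMIs in irradiated WT mice came from 3 cells. The lower one was Tnfsf10, at 5.90 CPM in irradiated cKO, 1.80 CPM in irradiated WT and 21.1 CPM in non-irradiated WT mice, with the endothelial list of this gate at 188 CPM in irradiated cKO, 79.9 CPM in irradiated WT and 743 CPM in non-irradiated WT mice. The part of endothelial RNA in it was not tested.

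The Csf1r gate, which takes in macrophages and monocytes, had 240 cells in irradiated cKO, 86 in irradiated WT and 628 in non-irradiated WT mice. Of 22 members compared, 1 was higher (4.11% of all genes) and 6 were lower (9.92% of all genes) in irradiated WT than in non-irradiated WT mice. Fas was among the lower ones. It was at 50.4 CPM (43.2 to 58.4) in irradiated cKO and 30.8 CPM (22.8 to 40.6) in irradiated WT mice, against 82.7 CPM (74.7 to 91.2) in non-irradiated WT mice, and stayed past 2-fold for irradiated WT against non-irradiated WT under the 9 alternative settings that gave it a value and could have ended the call. Tnfsf9, the ligand of 4-1BB, was at 38.3 CPM (32.0 to 45.4) in irradiated cKO and 43.7 CPM (34.1 to 55.1) in irradiated WT mice, against 102 CPM (93.2 to 111) in non-irradiated WT mice. So the ligand was lower in this gate while its receptor Tnfrsf9 was higher in T cells. Tnfrsf21 (DR6), a death-domain receptor, was higher: 34.5 CPM (28.6 to 41.3) in irradiated cKO and 41.2 CPM (32.0 to 52.4) in irradiated WT mice, against 14.2 CPM in non-irradiated WT mice.

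Tnf, the founding cytokine of the family, had its highest level in the Csf1r gate of every library. It was at 188 CPM (174 to 203) in irradiated cKO and 206 CPM (185 to 229) in irradiated WT mice, against 309 CPM (293 to 325) in non-irradiated WT mice, lower in both irradiated libraries by less than 2-fold. Its receptors there were Tnfrsf1b, at 169 CPM in irradiated cKO, 143 CPM in irradiated WT and 139 CPM in non-irradiated WT mice, and Tnfrsf1a, at 71.1 CPM in irradiated cKO, 68.9 CPM in irradiated WT and 86.6 CPM in non-irradiated WT mice. Tnfrsf12a was at 102 CPM in irradiated cKO, 126 CPM in irradiated WT and 62.9 CPM in non-irradiated WT mice, just short of the threshold. The other 4 lower members were Tnfsf10 (1.23 CPM in irradiated WT against 21.2 CPM in non-irradiated WT mice), Tnfsf13b (6.16 CPM in irradiated WT against 18.1 CPM in non-irradiated WT mice), Tnfrsf19 (3.08 CPM in irradiated WT against 15.4 CPM in non-irradiated WT mice) and Tnfrsf13c (0.616 CPM in irradiated WT against 8.12 CPM in non-irradiated WT mice), all with higher levels in another gate. The cells of the gate were not the same mix in each library. Those with Marco or Siglecf RNA, genes of alveolar macrophages, were 14.6% in irradiated cKO, 38.4% in irradiated WT and 9.71% in non-irradiated WT mice. Those with Ace or Treml4 RNA, genes of non-classical monocytes, that were not already in the Marco or Siglecf subset or a C1q subset, were 32.5% in irradiated cKO, 15.1% in irradiated WT and 49.2% in non-irradiated WT mice. The AT2 list of the gate summed to 1812 CPM in irradiated cKO, 21087 CPM in irradiated WT and 9010.2 CPM in non-irradiated WT mice, and its part in these values was not tested. With the same mix in both libraries Fas was still lower in irradiated WT, at a log2 ratio of -1.22, as was Tnfsf9, at -1.34, while Tnfrsf21 was at 0.92 and no longer apart. In irradiated WT mice these values rest on small subsets, among them 7 cells set by C1q RNA and 13 by Ace or Treml4 RNA. Tnfsf9 was short of 2-fold with 20 CPM added, at -0.94, and without the 3 highest cells of non-irradiated WT mice, at -0.90.

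**Figure D4:**
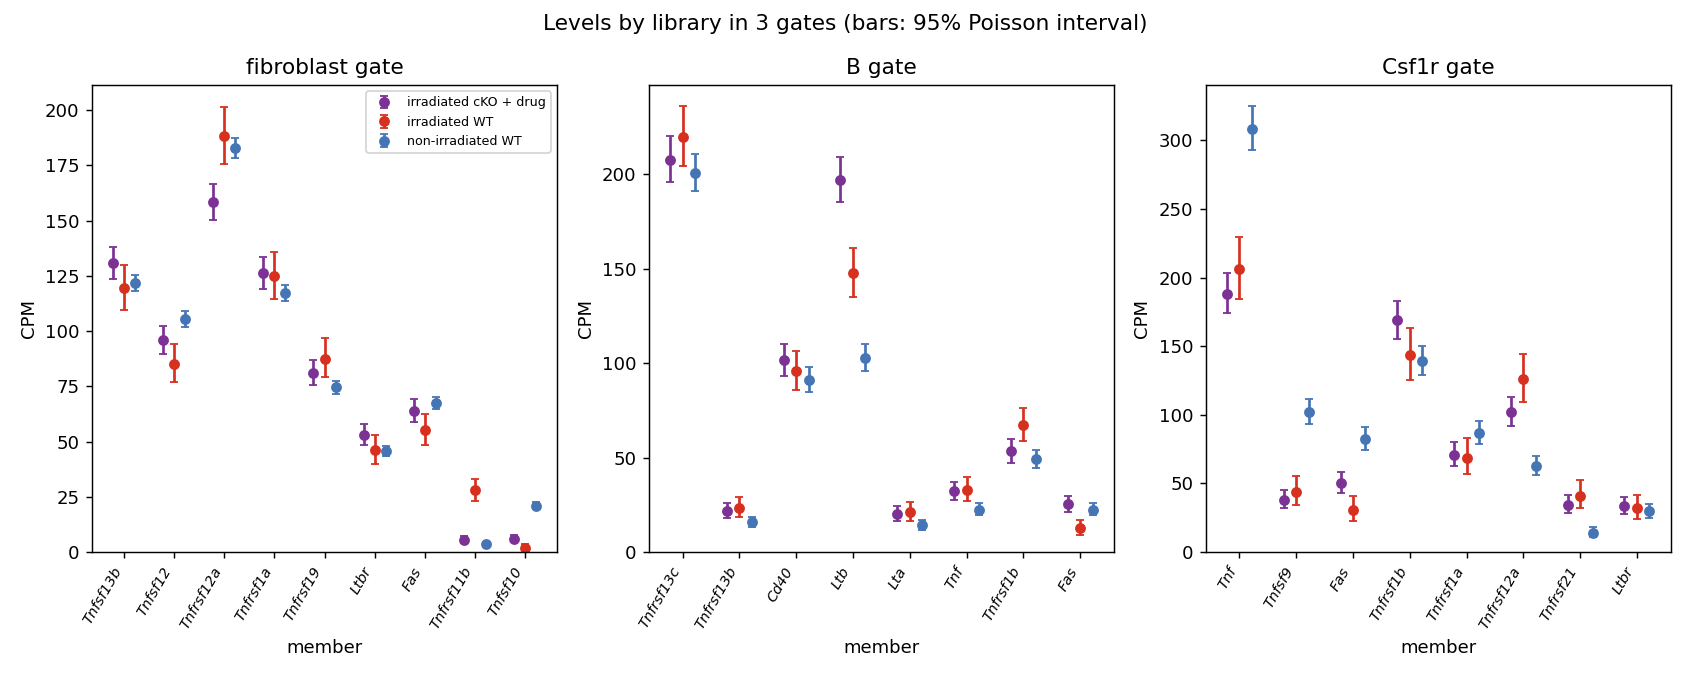
CPM of members in the fibroblast, B and Csf1r gates (x axis), with purple for irradiated cKO, red for irradiated WT and blue for non-irradiated WT mice, and bars for 95% Poisson intervals, which cover counting error only. The libraries lie close together for Tnfsf13b and Tnfrsf1a in fibroblasts and for Tnfrsf13c and Cd40 in B cells, and Tnfsf9 and Fas are lower in both irradiated libraries of the Csf1r gate.

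Few members were apart between irradiated cKO mice with drug and irradiated WT mice. In the T gate 0 of 34 members were apart, with 0.295% of all genes higher and 0.156% lower. On the log2 scale with 5 CPM added, the widest difference there was in Tnfrsf9, at -0.95. It was at 143 CPM in irradiated cKO against 283 CPM in irradiated WT mice, a CPM ratio of 0.507 (0.489 to 0.526). Tnfrsf8 had a wider CPM ratio at low levels, with 3.61 CPM in irradiated cKO against 8.27 CPM in irradiated WT mice. The CPM ratio was 0.565 (0.542 to 0.589) for Tnfrsf4, 0.620 (0.593 to 0.649) for Tnfrsf18 and 0.665 (0.588 to 0.752) for Tnfsf4. Within the Cd4 cells 3 of 22 members were lower in irradiated cKO (0.847% of all genes) and 0 higher (1.47% of all genes). These were Tnfrsf9 (111 CPM in irradiated cKO against 259 CPM in irradiated WT mice), Tnfsf4 (17.1 CPM in irradiated cKO against 41.3 CPM in irradiated WT mice) and Tnfsf10 (4.09 CPM in irradiated cKO against 14.0 CPM in irradiated WT mice). In the other subsets 0 members were apart: 0 of 17 in Foxp3 cells (0.778% of all genes higher, 0.611% lower), 0 of 30 in Trdc cells (0.514% and 0.346%), 0 of 26 in Cd8a/Cd8b1 cells (0.662% and 0.354%) and 0 of 27 in the remaining T cells (0.631% and 0.368%). In the B gate 0 of 19 and in the NK gate 0 of 15 were apart, with 0.658% and 0.98% of all genes higher and lower in B cells and 4.09% and 0.749% in NK cells. These counts change when only cells of female type are compared. In the T gate 1 of 34 members was then lower (0.224% of all genes) and 0 higher (0.423% of all genes): Tnfrsf9, at 149 CPM in irradiated cKO against 319 CPM in irradiated WT mice. In the B gate 2 of 15 were higher (1.57% of all genes) and 0 lower (0.858% of all genes). Tnf was at 35.0 CPM in irradiated cKO against 14.1 CPM in irradiated WT mice, the latter from 25 UMIs. With cells of every sex type, and without the few B gate cells high in Jchain RNA, Tnf was at 32.5 CPM in irradiated cKO and 33.8 CPM in irradiated WT mice. The Csf1r list of the whole B gate summed to 1373 CPM in irradiated cKO and 305 CPM in irradiated WT mice, and its part in the result was not tested. Tnfsf8 was at 23.9 CPM in irradiated cKO against 7.91 CPM in irradiated WT mice, with 35 of its 118 UMIs in irradiated cKO from 1 cell. In female-type fibroblasts Ltb was higher (1.23% of all genes), at 25.0 CPM in irradiated cKO against 8.86 CPM in irradiated WT mice, and Tnfrsf11b was lower (0.376% of all genes), of 23 members compared. In female-type NK cells 0 of 12 members were apart (5.3% of all genes higher, 0.999% lower), and in the Pecam1 and Cdh5 gate 0 of 31 (1.52% and 1.6%).

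In the Csf1r gate 2 of 20 members were higher (3.37% of all genes) and 1 lower (1.7% of all genes) in irradiated cKO than in irradiated WT mice. Ltb was at 44.3 CPM (37.6 to 51.9) in irradiated cKO, 13.5 CPM (8.49 to 20.5) in irradiated WT and 30.8 CPM (26.1 to 36.2) in non-irradiated WT mice. Tnfrsf4 was at 30.2 CPM in irradiated cKO against 10.5 CPM in irradiated WT mice, but 66 of its 105 UMIs in irradiated cKO came from 1 cell, and the ratio turned below 1 without the 3 highest cells. Cd40 was at 4.32 CPM in irradiated cKO against 21.5 CPM in irradiated WT mice, where 19 of its 35 UMIs came from 1 cell, and its sign turned as well without the 3 highest cells. The gate also differed in other RNA: the B list summed to 536 CPM in irradiated cKO and 60.9 CPM in irradiated WT mice, the T list to 424 CPM in irradiated cKO and 164 CPM in irradiated WT mice, and the neutrophil list to 12209 CPM in irradiated cKO and 3563 CPM in irradiated WT mice. Their part in the result was not tested. In fibroblasts 0 of 24 members were higher (0.943% of all genes) and 1 was lower (0.329% of all genes), the Tnfrsf11b of few cells given above. In the Pecam1 and Cdh5 gate 0 of 33 members were apart, with 1.39% of all genes higher and 1.54% lower. Within it, 1 of 10 members was higher in the Car4 or Ednrb cells (5.59% of all genes) and 0 lower (1.29% of all genes): Tnf, at 47.6 CPM in irradiated cKO against 2.43 CPM in irradiated WT mice, from 47 UMIs in irradiated cKO and 1 UMI in irradiated WT mice. Its ratio was 19.6 (3.35 to 791). The strict endothelial gate did not show this: Tnf had 3 UMIs (2.62 CPM) in irradiated cKO and 1 UMI (1.87 CPM) in irradiated WT mice. In the cells of the Pecam1 and Cdh5 gate outside the marker subsets 1 of 30 was higher (1.96% of all genes) and 0 lower (1.94% of all genes): Tnfsf10, at 27.3 CPM in irradiated cKO against 8.96 CPM in irradiated WT mice. In the strict endothelial gate 2 of 9 were higher (3.33% of all genes) and 0 lower (0.975% of all genes). These were Cd40, at 26.2 CPM in irradiated cKO against 7.50 CPM in irradiated WT mice, and Tnfsf8, at 27.0 CPM in irradiated cKO against 1.87 CPM in irradiated WT mice. The Tnfsf8 UMIs of irradiated cKO mice were 31 in 6 cells, in a gate whose basophil and mast cell list summed to 816 CPM in irradiated cKO against 1.87 CPM in irradiated WT mice, and the part of such cells was not tested.

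Downstream of the receptors, 33 genes for adaptors, kinases, ubiquitin enzymes and NF-kB subunits were followed in the same way. Between irradiated WT and non-irradiated WT mice, 0 were apart in the T, B, NK and fibroblast gates, where 32, 30, 27 and 31 were compared. Over all genes, 0.556% to 1.05% were higher and 1.81% to 7.57% lower in these gates. Their median log2 ratio in the T gate was 0.20, beside 0.07 for all genes, and that of B cells was 0.23, beside -0.03. In the T gate Tnfaip3, the A20 enzyme that limits NF-kB signalling, stood at 1376 CPM in irradiated WT and 898 CPM in non-irradiated WT mice, less than 2-fold apart. In the Csf1r gate 0 of 28 were higher (4.11% of all genes) and 3 were lower (9.92% of all genes) in irradiated WT mice. These were Traf1, an adaptor of TNF receptor 2, with 123 CPM in irradiated WT against 349 CPM in non-irradiated WT mice, Map3k14 (the NIK kinase), with 13.5 CPM in irradiated WT against 37.7 CPM in non-irradiated WT mice, and the ubiquitin ligase Birc3, with 42.5 CPM in irradiated WT against 94.1 CPM in non-irradiated WT mice. In the Pecam1 and Cdh5 gate with its T cells 7 of 33 were higher (5.87% of all genes), led by Tnfaip3 at a log2 ratio of 1.76, Traf4 at 1.59, Traf1 at 1.47 and Nfkb1 at 1.18. Between irradiated cKO and irradiated WT mice 0 were apart in any of the 6 gates, where 0.295% to 4.09% of all genes were higher and 0.156% to 1.7% lower.

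The remaining 12 members were under 20 CPM in every gate and library, the highest being Tnfrsf11a (RANK) at 12.3 CPM in the Csf1r gate of irradiated WT mice, and none was apart in a whole gate. Cd40lg, the CD40 ligand of helper T cells, reached 8.04 CPM in the T gate of non-irradiated WT mice, and Tnfrsf8 (CD30) 8.27 CPM in the T gate of irradiated WT mice. Tnfrsf17 (BCMA), a receptor of plasma cells, reached 7.61 CPM in the B gate of irradiated WT mice, from 26 UMIs. Tnfsf15 (TL1A) reached 10.2 CPM in the fibroblast gate of irradiated cKO mice. The others were Cd70, Tnfrsf14, Tnfrsf22, Tnfsf13, Tnfsf13os, Tnfsf18 and Tnfsfm13. Among the 31 members described with values, those under 25 CPM in their highest gate, Tnfsf4, Tnfsf14, Lta, Tnfrsf13b, Tnfrsf10b and Tnfrsf25, have folds that the added 5 CPM makes smaller.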

How the data were processed

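The deposited values are UMI counts per gene and cell barcode for 3 libraries, made with a software version 3.1.0 per the file headers and against mm10 per the submitters' processing notes. The aligner, annotation and counting strand are not stated. Every deposited barcode had at least 500 UMIs, and 0 other columns of per-sample values were left aside. Cells with at least 250 genes and at most 15% UMIs of 13 mitochondrial genes were kept. Gates asked for 2 UMIs of Cd3d, Cd3e and Cd3g together (T), 2 of Cd79a (B), 1 of Ncr1 without those Cd3 genes (NK), 1 of Csf1r, 2 of Pecam1 and Cdh5 together (endothelial) and 2 of Col1a1 and Col1a2 together (fibroblast), with at least 50 cells per library. Marker subsets are exclusive, and each cell went to the first it met, by summed UMIs. The T order was 1 UMI of Foxp3, of Trdc, of Cd8a and Cd8b1, and of Cd4. The endothelial order was 1 of Prox1, 2 of Car4 and Ednrb, and 2 of Gpihbp1. The fibroblast order was 2 of Npnt, Ces1d and Inmt, then 2 of Pi16, Dpp4 and Col14a1. The Csf1r order was 1 of Marco and Siglecf, 3 of C1qa, C1qb and C1qc, 1 of Ace and Treml4, and 2 of Ccr2 and Ly6c2. UMIs were summed per gate and scaled to CPM. A gene was compared where its higher library had at least 30 UMIs. Poisson and binomial intervals are exact, at 95%, and cover counting error only. No doublet caller was used, and Scrublet (scanpy 1.11.5) was an alternative. The calling of ratios was tested on simulated Poisson counts. Changes were put only into genes with at least 50 CPM over both libraries and at least 30 expected UMIs in the smaller one. Simulated 3-fold changes were called in 96% to 100% of these genes over the 12 comparisons of gate and pair. These rates do not cover members under 50 CPM. Python 3.11.15, numpy 2.4.6, scipy 1.17.1 and pandas 2.3.3 were used, with random seed 1. Members and lists were chosen with earlier results of these data known. Named with values were members apart in at least 1 gate or with at least 20 CPM in 1 gate and library, and, of the signalling list, the 4 with the largest called ratios in each direction. Gene coordinates come from GENCODE on GRCm38 and promoters from RefSeq on GRCm38.p6, neither of which need be the annotation the authors counted with.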

Additional observations from a re-analysis of the deposited data

Results flagged for a closer look

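The ratio of Tnf in irradiated WT over non-irradiated WT mice had opposite signs in a pair of gates. In the NK gate its log2 ratio was -1.13, from 13 UMIs in irradiated WT and 43 UMIs in non-irradiated WT mice. In the endothelial gate set by Pecam1 and Cdh5 it was 1.08. The difference between the gates was not tested. Without the 3 cells with the most Tnf UMIs in irradiated WT mice, the endothelial ratio was -0.11.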

How the results depend on the processing

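No paired analysis was possible because each group has 1 library, and for the same reason no replicate could be left out. Of the 41 differences between irradiated WT and non-irradiated WT mice, 13 stayed past 2-fold with 20 CPM added, 16 without cells in several gates, 17 thinned to 1000 UMIs, 25 with the same mix of marker subsets, 29 without the 3 highest cells, 32 after Scrublet, 34 with every cell weighing the same, 40 with median-of-ratios scaling and 41 with at least 500 genes and at most 10% mitochondrial UMIs. In female-type cells 28 of 34 stayed and with gates at 1 UMI more 23 of 34, since the Csf1r gate then fell under 50 cells. With the strict endothelial gate 0 of the 19 endothelial differences stayed, 10 of them for want of UMIs, and without Foxp3 cells 4 of the 6 in the T gate. Adding 1 CPM or dropping the minimum on UMIs cannot end a call. The count of members higher in irradiated WT, 20, became 9 with 20 CPM added, 13 without cells in several gates, 8 with cells thinned to 1000 UMIs, 13 with gates at 1 UMI more (5 gates), 9 with the same mix of marker subsets and 8 with the strict endothelial gate. The count lower, 21, became 32 with 1 CPM added, 4 with 20 CPM added, 6 without cells in several gates, 13 when thinned, 12 with gates at 1 UMI more and 9 without members under 20% of their highest gate. The 2 members higher in irradiated cKO than in irradiated WT became 10 with 1 CPM and 0 with 20 CPM added, 4 with the same mix and 4 with the strict endothelial gate, and 1 each after Scrublet, thinning, gates at 1 UMI more and leaving out members under 20% of their highest gate. The 2 lower became 0 with 20 CPM added, thinned, or without the 3 highest cells, 4 with no minimum on UMIs or without cells in several gates, and 1 with gates at 1 UMI more. Counts over all genes, summed over the gates, were not made under these settings, so whether the shifts are particular to the members is not known. The cause of these shifts was not tested. Log2 ratios of irradiated WT over non-irradiated WT turned sign in the strict endothelial gate for Tnfrsf1b (-0.48), Tnfrsf4 (-0.38), Cd27 (-0.66), Ltb (-0.70), Tnf (-0.25), Tnfrsf1a (0.28) and Tnfrsf19 (0.49), thinned for Tnfsf13b in the Csf1r gate (0.17), and without the 3 highest cells for Tnf in the endothelial gate (-0.11) and Tnfrsf11b in the fibroblast gate (-0.24). Ratios of irradiated cKO over irradiated WT turned without the 3 highest cells for Tnfrsf11b in the fibroblast gate (0.53), Cd40 in the Csf1r gate (0.30) and Tnfrsf4 in the Csf1r gate (-0.39), which also turned without cells in several gates (-1.26), after Scrublet (-0.13) and thinned (-0.31). The strict endothelial gate, the T gate without Foxp3 cells and the removal of the 3 highest cells were chosen after seeing the data. Scrublet's own threshold marked 2 cells in irradiated cKO, 7 in irradiated WT and 446 in non-irradiated WT mice, so the highest scores were removed instead, at a rate set by the number of barcodes: 7.91% of irradiated cKO, 4.65% of irradiated WT and 10.5% of non-irradiated WT cells. In the Csf1r gate of irradiated WT mice 86 cells limit what can be seen.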

Other observations

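Eda2r, a receptor of the wider family for ectodysplasin whose symbol falls outside the members, stood apart in fibroblasts. It was at 20.1 CPM in irradiated cKO, 21.6 CPM in irradiated WT and 6.24 CPM in non-irradiated WT mice, with a log2 ratio of 1.24 for irradiated WT over non-irradiated WT. In the endothelial gate set by Pecam1 and Cdh5 it was at 9.70 CPM in irradiated cKO, 7.27 CPM in irradiated WT and 1.71 CPM in non-irradiated WT mice. Eda2r was picked out after its values were seen.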
